A study of Mus musculus with 4 samples.

Results

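Of the 63061 peaks in the replicated list of histone H3 lysine 27 acetylation (H3K27ac) from mouse heart, 3084 (4.89%) overlapped no gene body of GENCODE release M21 and lay over 100 kb from every transcription start site (TSS) of a protein-coding gene. Within that list these far intergenic peaks were chosen by position alone, with distance taken from the nearer peak edge. The list itself holds called peaks that the authors label replicated, so strength and repeatability bore on which peaks could be chosen. The mice were female B6CASTF1/J animals, 2 months old, the F1 cross of the inbred strains C57BL/6J and CAST/EiJ. The 4 chromatin immunoprecipitation libraries formed 1 group, made in 2 technical replicates from each of 2 biological replicates. A biological replicate was 2 heart samples pooled. Both pools carry 1 and the same donor identifier in the labels, so differences between them may be technical. There was no second tissue, age, sex or treatment. Positions are on mm10, the GRCm38 assembly. The far peaks are set beside the 10125 intergenic peaks lying 2.5 to 100 kb from a coding TSS, called nearer intergenic peaks here, beside all peaks, and beside flanking sequence. The other intergenic peaks, 2382, lay within 2.5 kb of a coding TSS, and 47470 peaks overlapped a gene body, of which 2222 were also over 100 kb from coding TSSs. Promoter peaks, taken as peaks within 1 kb of a coding TSS, were present at 10 of 10 heart muscle markers, 4 of 4 endothelial and 4 of 4 fibroblast markers, and at 0 of 4 skeletal muscle, 0 of 3 liver, 0 of 3 neuronal and 0 of 3 blood markers.

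H3K27ac is laid down by the acetyltransferases p300 and CBP on nucleosomes beside active promoters and active enhancers. Enhancers bind transcription factors in the gap between nucleosomes, can act over long distances through looping of chromatin, and often sit in gene-poor stretches beside genes that control development. Several heart enhancers are known from such stretches, and the gene an enhancer acts on need not be the nearest one. In whole tissue, few cells with strong acetylation and many cells with weak acetylation cannot be told apart.

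The sequences below show what the strongest far peaks looked like at the summit, the position of highest signal in the deposited list. They are 300 bp windows of the GRCm38 plus strand, from RefSeq, 5′ to 3′, in lower case, with capitals marking a match on either strand to the MEF2 consensus or to MEIS (TGACAG), E-box (CAGCTG), AP-1 (TGANTCA) or ETS (AGGAAGT) consensus sequences. The first is the far peak with the highest fold in the list, the second lies at the start of Zswim6, a gene that RefSeq but not GENCODE types as coding, and the third is the strongest member of a long cluster.
Klf4 peak summit, chr4:55650892-55651191: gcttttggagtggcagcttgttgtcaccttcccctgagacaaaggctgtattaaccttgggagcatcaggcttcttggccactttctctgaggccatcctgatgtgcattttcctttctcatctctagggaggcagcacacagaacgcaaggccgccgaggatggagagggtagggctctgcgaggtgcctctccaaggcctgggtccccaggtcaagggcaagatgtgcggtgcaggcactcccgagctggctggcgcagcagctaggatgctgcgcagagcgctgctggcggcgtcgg
Zswim6 start peak summit, chr13:107890736-107891035: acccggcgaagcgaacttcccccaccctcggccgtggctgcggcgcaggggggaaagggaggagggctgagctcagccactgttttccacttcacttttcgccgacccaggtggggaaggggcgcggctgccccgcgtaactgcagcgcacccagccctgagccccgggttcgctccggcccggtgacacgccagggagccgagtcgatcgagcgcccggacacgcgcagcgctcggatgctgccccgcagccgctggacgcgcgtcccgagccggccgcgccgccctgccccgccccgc
Cd83 cluster peak summit, chr13:44066118-44066417: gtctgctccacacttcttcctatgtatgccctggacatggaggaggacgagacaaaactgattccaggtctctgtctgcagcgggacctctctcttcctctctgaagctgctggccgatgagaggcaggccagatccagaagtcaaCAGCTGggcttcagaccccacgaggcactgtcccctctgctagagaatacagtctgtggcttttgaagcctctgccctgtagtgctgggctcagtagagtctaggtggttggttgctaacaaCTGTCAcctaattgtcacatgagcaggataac
The first window held no match to these 5 sequences at 60.3% GC, the second none at 74.7% GC, and the third held 1 MEIS and 1 E-box match at 53.7% GC.

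Matches to the sequence of MEF2, a factor family of muscle genes, stood more often to the side of the summit than under it, as described further on. The windows below are 101 bp each, centred on the MEF2 match nearest to the summit, with the same capitals. They are some of the windows found within 500 bp of a summit in far peaks that rank among the 10 highest by fold or lie in the 10 longest clusters. They were chosen after the positions of the matches were seen, so they are examples and no evidence for those positions. Of the 10 highest, only the peaks near Fam43a, Dcn and Zic4 gave such a window, and the peak near Jcad was not searched.
Fam43a peak, chr16:30737105-30737205: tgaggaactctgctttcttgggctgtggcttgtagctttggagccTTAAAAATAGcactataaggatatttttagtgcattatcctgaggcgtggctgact
Dcn peak, chr10:97313798-97313898: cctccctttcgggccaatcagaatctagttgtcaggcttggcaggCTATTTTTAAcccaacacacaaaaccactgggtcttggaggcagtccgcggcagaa
Zic4 peak, chr9:91102191-91102291: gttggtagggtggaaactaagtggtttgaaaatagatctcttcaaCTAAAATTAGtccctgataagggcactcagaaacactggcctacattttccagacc
Zfp36l1 peak at fold 14.5, chr12:79905988-79906088: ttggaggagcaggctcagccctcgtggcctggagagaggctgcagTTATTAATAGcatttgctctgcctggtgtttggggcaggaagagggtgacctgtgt
Zfp36l1 peak at fold 8.76, chr12:79986348-79986448: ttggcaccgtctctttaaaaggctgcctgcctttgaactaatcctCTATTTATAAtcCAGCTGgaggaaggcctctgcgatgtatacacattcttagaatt
Haao peak, chr17:83983072-83983172: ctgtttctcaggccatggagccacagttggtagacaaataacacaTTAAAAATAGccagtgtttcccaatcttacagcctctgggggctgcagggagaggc
Cd83 cluster peak, chr13:44065968-44066068: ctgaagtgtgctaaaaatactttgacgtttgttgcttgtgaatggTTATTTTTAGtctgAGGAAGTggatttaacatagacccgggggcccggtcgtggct
Plk2 peak, chr13:110578254-110578354: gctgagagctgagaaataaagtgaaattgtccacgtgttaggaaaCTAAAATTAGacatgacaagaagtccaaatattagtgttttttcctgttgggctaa
Plpp3 peak, chr4:105262477-105262577: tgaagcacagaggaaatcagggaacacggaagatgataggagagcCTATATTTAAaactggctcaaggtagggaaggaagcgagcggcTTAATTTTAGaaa
Serp2 peak, chr14:76731410-76731510: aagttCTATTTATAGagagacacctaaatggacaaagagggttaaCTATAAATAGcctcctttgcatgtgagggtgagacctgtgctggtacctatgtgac
The matches stood 291 bp from the summit near Fam43a, 301 bp near Dcn and 255 bp near Zic4. They stood 261 and 202 bp from it in the peaks near Zfp36l1, 263 bp near Haao and 250 bp in the Cd83 cluster. Distances were 287 bp near Plk2, 220 bp near Plpp3 and 141 bp near Serp2. In windows of these groups that are not shown, the distance ran more widely, from 109 to 472 bp, both in the Cd83 cluster. The peak near Zfp36l1 with a fold of 8.76 also held an E-box close to its MEF2 match, the Cd83 peak an ETS match, and the windows near Plpp3 and Serp2 a second MEF2 match each. A match is a description of letters, and binding of a factor was not measured.

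Far intergenic peaks were sparse for the sequence open to them. Sequence outside gene bodies and over 100 kb from coding TSSs, called eligible sequence here, made up 691.1 Mb or 27% of the assembled genome. The far peaks occurred at 4.46 per Mb of it (95% exact Poisson interval 4.31 to 4.62), against 16.4 per Mb (16.1 to 16.8) for nearer intergenic peaks and 24.6 per Mb for all peaks over the genome. They covered 2.40 Mb, which was 0.347% of eligible sequence and 3.59% of the length of the list. All intervals given here cover counting only, since sequencing depth is unknown and neighbouring peaks are not independent.

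Density was lower at each step away from coding genes, with no break in that order at 100 kb. Intergenic sequence held 59.1 peaks per Mb within 2.5 kb of a coding TSS, 19.4 between 2.5 and 10 kb, 18.1 between 10 and 25 kb, 15.9 between 25 and 50 kb and 13.5 between 50 and 100 kb. Among far peaks it was 8.22 per Mb between 100 and 200 kb, 5.52 between 200 and 300 kb and 3.56 between 300 and 500 kb. Beyond that it was 1.42 per Mb (1.23 to 1.62) between 500 and 1000 kb and 0.426 (0.285 to 0.612) over 1000 kb. The median far peak lay 191.4 kb from the nearest coding TSS, with quartiles of 134.5 and 300.7 kb. Only 246 lay over 500 kb away, and 29 over 1000 kb.

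**Figure D1:**
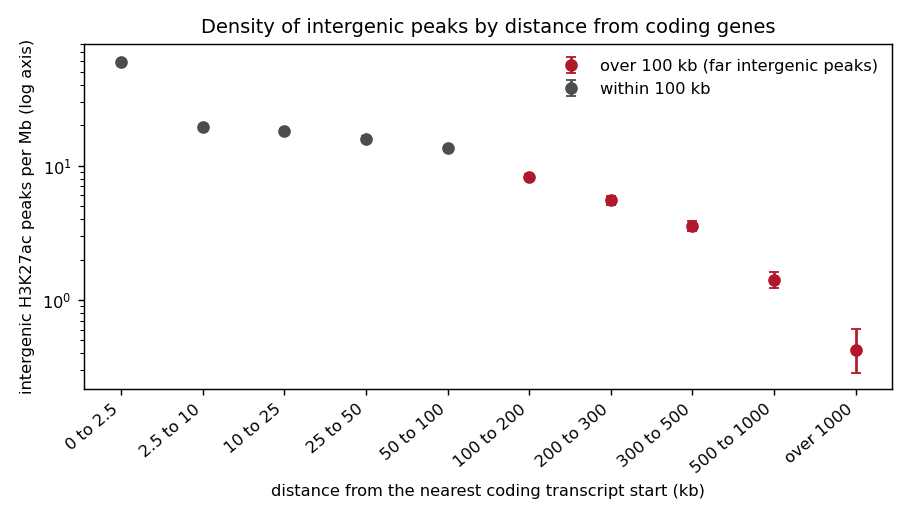
Intergenic H3K27ac peaks per Mb of intergenic sequence (log axis) by distance of the nearer peak edge from the closest coding TSS, with 95% exact Poisson intervals that cover counting only. The 5 classes over 100 kb hold the far intergenic peaks and lie between 8.22 and 0.426 per Mb.

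The far peaks were somewhat narrower and lower in fold than intergenic peaks 2.5 to 100 kb from coding TSSs. Their median width was 543.5 bp (95% interval of the median 524 to 561), against 577 bp (566 to 588) for nearer intergenic peaks and 693 bp for all peaks. The deposited fold, the authors' ratio for each peak and used here only to order peaks within 1 list, had a median of 3.89 (3.83 to 3.98) in far peaks, 4.17 (4.17 to 4.27) in nearer intergenic peaks and 4.55 in all peaks. The median −log10 q was 6.27 in far peaks and 7.03 in nearer ones. The 2382 intergenic peaks within 2.5 kb of a coding TSS were narrower than the far peaks, with a median of 503 bp, but higher in fold, with a median of 5.32. The spread was wide in each group: far peaks ran from 178 to 6863 bp in width and from 1.71 to 29.8 in fold. Of the far peaks, 10.7% stood in the top 25% of the list by fold, against 14.7% of nearer intergenic peaks.

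Most far peaks overlapped a peak in the list of each pool of hearts taken alone. The replicated list was derived from the alignments of these same pools, so the overlap is partly built in and is no independent recovery. Of the 3084, 2041 (66.2%, 95% exact binomial interval 64.5 to 67.9) overlapped a peak by at least 1 bp in the lists of both single replicates, against 69.6% (68.6 to 70.5) of nearer intergenic peaks. Over all peaks of the list this share was 73.0%. A further 622 far peaks (20.2%) overlapped a peak of replicate 2 only, 166 (5.38%) of replicate 1 only, and 255 (8.27%) of neither. The same rule of position gave 2500 far peaks of 55831 (4.48%) in the list of replicate 1 and 3064 of 61333 (4.996%) in that of replicate 2. The list of replicate 2 thus held more far peaks and was also the longer list. The lower share of far peaks in both lists went with lower fold. Within the lowest-fold class of 4 equal classes of the list, 26.6% of far and 26.2% of nearer intergenic peaks were in both single lists. In the second class the shares were 69.9% and 69.0%, in the third 96.8% and 97.7%, and in the top class 330 of 330 far peaks and 1484 of 1484 nearer ones. At like fold, the counting intervals of far and nearer peaks thus overlapped in every one of these classes. With distance, the share in both lists was 68.7% between 100 and 200 kb, 66.8% between 200 and 300 kb, 64.6% between 300 and 500 kb, 52.1% (45.2 to 58.9) between 500 and 1000 kb and 44.8% (26.5 to 64.3) over 1000 kb. Median fold over the same steps was 3.98, 3.89, 3.98, 3.46 and 3.32.

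**Figure D2:**
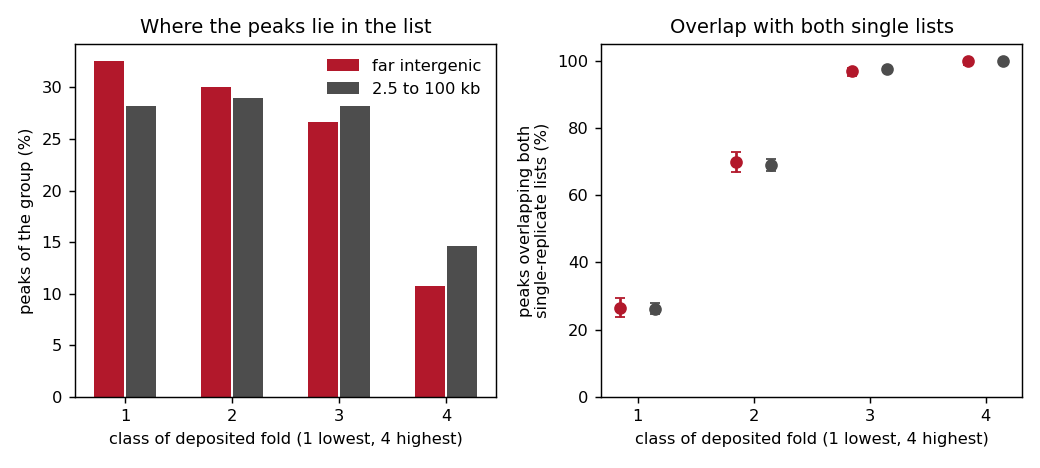
Left, percentage of far intergenic and nearer intergenic peaks in each of 4 equal classes of the deposited fold of the whole list, lowest class first. Right, percentage of those peaks that overlap a peak in both single-replicate lists, with 95% exact binomial intervals; far and nearer peaks lie together in each class, at 26.6% and 26.2% in the lowest and at 100% in the top one.

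The strongest far peak lay 118 kb from the TSS of Klf4, which encodes a zinc-finger transcription factor active in endothelium and smooth muscle. It spanned chr4:55650063-55653355, 3.29 kb, with a fold of 29.8 in the replicated list, 25.2 in the list of replicate 1 and 35.0 in that of replicate 2. The second, at chr16:30735263-30738845 and 136 kb from Fam43a, had folds of 25.7 in the replicated list, 21.4 in replicate 1 and 27.2 in replicate 2. Both peaks were thus among the strong ones in each pool, and the Klf4 promoter itself carried a peak of fold 24.8. The third lay 117 kb from Jcad, a gene for an endothelial junction protein, on chromosome 18 at 4.55 kb width and a fold of 23.7. RefSeq annotation places a coding start of Jcad closer to it, at 72.8 kb. The fourth, 120 kb from Lrrc30, had a fold of 22.8, and no promoter peak stood at Lrrc30. The fifth lay 165 kb from Dcn, which encodes decorin, a matrix proteoglycan made by fibroblasts. Its fold was 22.6 in the replicated list, 13.6 in replicate 1 and 31.1 in replicate 2, and the promoter peak of Dcn had a fold of 5.80.

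The sixth, with a fold of 21.7, lay 260 kb from Zic4, a zinc-finger factor gene of cerebellar development that had no promoter peak, and it was the single far peak nearest to that gene. The eighth lay 168 kb from Ly86, which encodes an immune cell surface partner protein and likewise had no promoter peak, and had a fold of 20.2. The last 2 of these 10 stood in 1 stretch between Irf2bp2, a corepressor gene, and Tomm20, which encodes a receptor of mitochondrial protein import. Their folds were 19.1 and 18.8, they lay 140.5 and 137.5 kb from the nearer gene, and the peak near Tomm20 was 5.01 kb wide. All 10 were found in both single lists because the rule for naming them asked for it.

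The seventh strongest far peak lay at a coding gene start in the RefSeq annotation. It stood at chr13:107890332-107892394 with a fold of 20.6 and a GC content of 72.4%, 152 kb from the coding gene Smim15 in GENCODE but 0.268 kb from the start of Zswim6, a zinc-finger gene that GENCODE M21 types as a processed transcript and RefSeq as coding. Trerf1, which encodes a zinc-finger regulator of transcription, gave a like case on chromosome 17, with a far peak 0.202 kb from its RefSeq mRNA start and a fold of 9.38. A peak with a fold of 7.29 lay 0.157 kb from the start of Gm5165. These were the 3 far peaks within 1 kb of a RefSeq mRNA start, and 69 (2.24%) lay within 100 kb of one.

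The farthest peak from any coding gene lay 2120 kb from Celf4, which encodes a neuronal RNA-binding protein, on chromosome 18. It was 0.234 kb wide with a fold of 4.30 and appeared in both single lists. The next 4 lay 1569 kb from Efna5, 1421 kb from Pik3c3, 1409 kb from Flrt2 and 1407 kb from Zeb2, with folds of 2.62, 3.70, 3.32 and 2.75. Of these 5, the peaks near Efna5 and Zeb2 were in neither single list. At the threshold itself the nearest members were 100.1 kb from Mtx2, Dnajb6 and Chic2, with folds of 7.20, 3.87 and 7.29. The nearest intergenic peaks left out lay 99.89 kb from Nfe2l3, 99.87 kb from Sesn3 and 99.84 kb from Fam180a, with folds of 2.25, 3.31 and 3.22.

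Far peaks were richer in G and C than the sequence around them and poorer than nearer peaks. In the 500 bp around the summit the median GC content was 44.2% (95% interval 44.0 to 44.6) in far peaks, 47.6% in nearer intergenic peaks, 49.0% in all peaks and 42.0% (41.8 to 42.2) in 5454 windows that lay 5 kb to either side of far peaks and touched no peak of any list. Median GC in far peaks was 45.6% between 100 and 200 kb, 44.0% between 200 and 300 kb, 42.4% between 300 and 500 kb, 40.0% between 500 and 1000 kb and 35.2% over 1000 kb. Repeats were scarcer under the peaks, with a median of 10.4% soft-masked bases in far peaks, 11.6% in nearer ones and 20.4% in the flanks of far peaks. In 65 far peaks (2.11%) at least 50% of the window was masked. CpG-island-like windows, of at least 50% GC and an observed-to-expected CpG ratio of at least 0.6, numbered 18 (0.584%) among far peaks, 231 (2.28%) among nearer intergenic peaks and 10969 (17.4%) among all peaks. The 18 included the peaks at the Zswim6 and Trerf1 starts and a peak 133 kb from the TSS of Meis1. That last peak lay close beyond the 3′ end of Meis1, at chr11:18877773-18878463, with the gene body beginning at 18879817.

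Of the 18 consensus sequences searched, the E-box CAGCTG, which is bound by basic helix-loop-helix factors, differed most from flanks in percentage points, by 10.2. By the ratio of far peaks to flanks it was at 1.59, below CTCF at 5.60, the glucocorticoid receptor at 2.19 and SP/KLF at 1.92. The E-box stood in 27.4% (25.8 to 29.0) of far peaks and 17.2% (16.2 to 18.3) of their flanks, with 30.3% of nearer intergenic peaks and 28.6% of all peaks. The MEIS sequence TGACAG stood in 36.3% (34.6 to 38.0) of far peaks and 28.6% (27.4 to 29.8) of flanks, with 33.0% of all peaks. The ETS sequence AGGAAGT, known from endothelial enhancers, stood in 16.9% of far peaks and 12.2% of flanks, with 15.1% of all peaks. AP-1 (TGANTCA) gave 18.4% against 15.3%, with 14.6% of all peaks, and TEAD (GGAATG) 29.7% against 26.95%, with 25.2%. The nuclear receptor sequence of the ERR kind (AAGGTCA) stood in 12.1% of far peaks and 9.19% of flanks, with 10.6% of all peaks. For these 6 sequences the intervals of far peaks and flanks did not overlap, except for TEAD, where 28.1 to 31.4 in far peaks touched 25.8 to 28.2 in flanks. Over the 200 bp around the summit, a shorter window, the differences from flanks were smaller. They were 4.40 percentage points for the E-box, 3.19 for MEIS against 7.70 over 500 bp, 1.57 for ETS against 4.72, 1.20 for ERR against 2.94 and 0.19 for AP-1 against 3.04. CTCF came to 0.0098 against 0.51, the glucocorticoid receptor to 0.16 against 0.83 and SP/KLF to 0.29 against 3.18. Among windows of 40 to 50% GC over 500 bp, the difference was 7.90 for the E-box and 1.76 for SP/KLF, both smaller, but 7.92 for MEIS and 3.16 for ERR.

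MEF2 matches were commoner in far peaks than in the other groups over 500 bp, but not commoner than in flanks over 200 bp. The MEF2 consensus stood in 13.0% (11.8 to 14.2) of far peaks, against 9.90% (9.12 to 10.7) of their flanks and 9.99% (9.41 to 10.6) of nearer intergenic peaks, with 8.62% of all peaks. The flanks of nearer intergenic peaks gave 7.95%, likewise below the flanks of far peaks. The sign of the difference between far peaks and their own flanks depended on the window, at 3.07 percentage points over 500 bp and −0.77 over 200 bp. Among windows of 40 to 50% GC only, it stood in 10.6% of far peaks and 6.42% of flanks. The share was higher at each step away from coding genes, where GC content was lower. It was 10.9% in far peaks and 8.52% in their flanks between 100 and 200 kb, 13.3% and 9.36% between 200 and 300 kb, 15.1% and 12.5% between 300 and 500 kb, and 18.9% and 14.6% between 500 and 1000 kb. Over 1000 kb it was 10 of 29 far peaks (34.5%, 17.9 to 54.3) and 6 of 55 flanks (10.9%). The share in flanks was also higher at each step up to 1000 kb, and the part of base composition in this was not tested.

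Matches were not spread evenly around the summits of far peaks. Per 100 kb of sequence around far peaks, MEF2 matches numbered 18.5 (95% exact Poisson interval 15.3 to 22.2) within 100 bp of the summit, 35.7 between 100 and 200 bp, 44.3 (39.2 to 49.8) between 200 and 300 bp and 32.6 between 300 and 400 bp. From 500 to 1000 bp they stayed between 24.0 and 27.6. AP-1 matches were also densest between 200 and 300 bp, at 52.5. Within 100 bp they came to 34.0, which lay within the 33.2 to 37.3 seen from 500 to 1000 bp. ETS matches gave 43.9 between 200 and 300 bp, 32.8 within 100 bp and 25.8 to 32.1 from 500 to 1000 bp. Neither was thus below its outer values at the summit, as MEF2 was. E-box matches were as dense at the summit as beside it, at 62.4 within 100 bp and 68.1 between 200 and 300 bp, and came to 43.0 between 900 and 1000 bp. GC content was 44.5% within 100 bp, 44.1% between 200 and 300 bp and 42.4% between 900 and 1000 bp, and its part in these profiles was not tested.

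**Figure D3:**
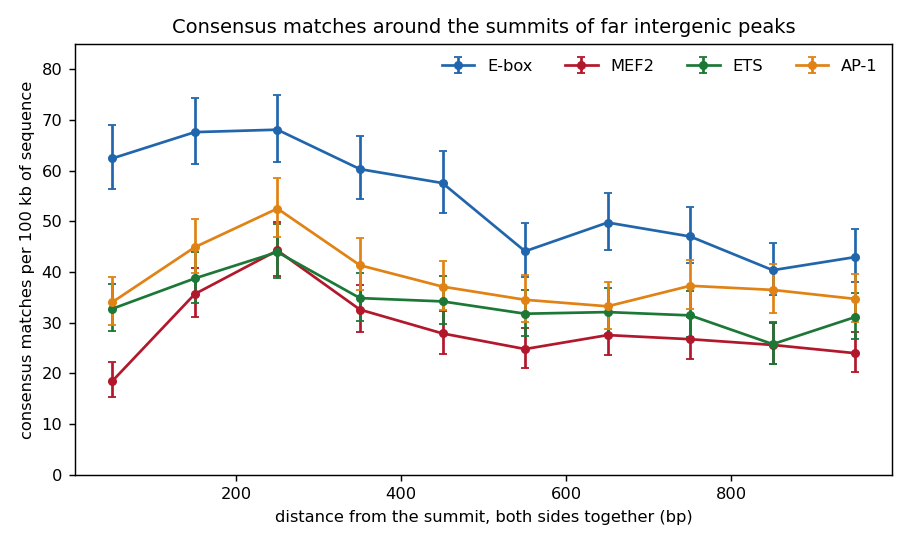
Matches to 4 consensus sequences per 100 kb of sequence around the summits of the 3084 far intergenic peaks, in 100 bp steps of distance with the bases on either side pooled and 95% exact Poisson intervals. MEF2 matches are rarest within 100 bp of the summit, at 18.5, and most frequent between 200 and 300 bp, at 44.3.

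The remaining consensus sequences differed from flanks in some cases and not in others. The sequence AGATAA of GATA factors stood in 28.9% of far peaks and 30.0% of flanks, with 21.3% of all peaks, and NKX2 (TNAAGTG) in 28.2% and 27.5%, with 22.9%. For both of these cardiac factor families the intervals of far peaks and flanks overlapped, and both sequences were commoner in far than in nearer intergenic peaks, where they stood in 24.7% and 24.0%. The flanks of nearer intergenic peaks gave 25.1% and 24.2%, likewise below the flanks of far peaks, so this difference was not particular to the peaks. SRF, whose consensus shares its A and T core with that of MEF2, stood in 2.79% of far peaks and 2.79% of flanks, with 2.53% of all peaks. FOX (GTAAACA) gave 9.05% and 7.70%, with 7.28% of all peaks, though its difference was −0.20 points over 200 bp, and SOX (AACAATG) gave 10.3% and 9.09%, with 7.18% and a difference of −0.31 points over 200 bp. The clock E-box (CACGTG) stood in 5.61% and 4.91%, with 7.87% of all peaks, and the D-box (TTATGTAA) in 2.20% and 2.48%, with 1.88%. The glucocorticoid receptor consensus was rare but stood in 1.52% (1.12 to 2.02) of far peaks and 0.697% (0.494 to 0.955) of flanks, with 1.51% of nearer intergenic peaks and 1.21% of all peaks. NFI was at 0.0973% in far peaks and 0.0917% in flanks, with 0.0793% of all peaks. The GC-rich SP/KLF sequence (GGGCGG), common at promoters, stood in 6.65% (5.79 to 7.58) of far peaks and 3.47% (2.996 to 3.985) of flanks but in 12.6% of nearer intergenic peaks and 24.6% of all peaks. CTCF, which anchors chromatin loops, stood in 19 far peaks (0.616%, 0.371 to 0.960) and 6 flanks (0.110%, 0.0404 to 0.239), with 145 nearer intergenic peaks (1.43%) and 0.809% of all peaks.

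Most far peaks lay within 10 kb of another far peak. Joined across gaps of at most 10 kb, the 3084 formed 1590 regions, of which 760 were clusters of at least 2 members and 830 were single peaks. These clusters held 2254 far peaks (73.1%), and 97 of them held 5 or more. Neighbouring peaks need not be separate elements, and how often they were parts of 1 broader region was not tested. For example, far peaks at chr9:6429981-6431009 and chr9:6431120-6431548 both overlapped a replicate 2 peak of 1.62 kb and fold 15.1. Joined in the same way, 75.5% of nearer intergenic peaks and 84.1% of all peaks stood in clusters of their own group. Clustered members had a median fold of 3.98 and width of 570 bp, against 3.70 and 472.5 bp for members alone, and 68.8% (66.8 to 70.7) of them were in both single lists, against 59.2% (55.7 to 62.5). The longest cluster by covered length lay at chr12:79878853-79914643, 198 kb from Zfp36l1, with 12 peaks over 19.5 kb. The second lay on chromosome 17 from 83968972 to 83993605, 121 kb from Haao, with 13 peaks over 19.3 kb and a highest fold of 18.5. The third was again near Zfp36l1, with 13 peaks over 19.0 kb, and the fourth held 14 peaks over 17.2 kb, 239 kb from Cd83. Next came clusters near Plk2 with 14 peaks over 16.1 kb and near Plpp3 with 18 peaks over 14.7 kb. Clusters near Lrrc30, Serp2, Jcad and Tomm20 had 9, 11, 7 and 10 peaks over 13.0, 12.1, 11.1 and 9.99 kb. Of the 10 longest, each held members that were in both single lists, from 4 of 7 near Jcad to 10 of 11 near Serp2. RefSeq gene bodies overlapped all 12 peaks of the longest cluster and 8 of the 14 near Cd83. In each of the others they overlapped 0 to 3 peaks.

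Far peaks were spread unevenly over the stretches between neighbouring coding genes. In all, 607 stretches held 3082 of them, 161 with a single member. The 84 stretches with at least 10 members held 1468 (47.6%), and the 10 with most members held 354 (11.5%). The stretch from Zeb2, a zinc-finger repressor gene, to Acvr2a, an activin receptor gene, held 40 over 3697 kb, 23 of them in both single lists and 12 over 500 kb from any coding TSS. The stretch from Agtr1b, an angiotensin receptor gene, to Tbl1xr1, which encodes a corepressor subunit, also held 40, with 20 in both single lists and 21 over 500 kb away. In the second of these the members thickened toward Tbl1xr1, which was the nearest gene of 35, against 5 for Agtr1b. Agtr1b had no promoter peak and Tbl1xr1 had one of fold 24.4.

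The densest was the 293 kb between Rad51b, a recombination repair gene, and Zfp36l1, which encodes a protein that binds and destabilises AU-rich mRNAs. It held 39 far peaks that covered 55.1 kb, the greatest covered length of the 10 stretches, and 29 were in both single lists. Zfp36l1 was the nearest gene of all 39, but Rad51b had no eligible sequence nearest to it and could not have been. The promoter peak of Zfp36l1 had a fold of 31.4. RefSeq extends Rad51b into this stretch, and 7 of the peaks lay inside it. Counting every RefSeq gene body, 25 of the 39 overlapped one, against 0 to 15 peaks in each other stretch of the 10. The stretch from Cd83, an immune cell surface protein gene, to Jarid2, a Polycomb partner needed in heart development, also held 39, over 926 kb with 41.4 kb covered. Cd83 was the nearest gene of 22 and Jarid2 of 17, with promoter folds of 6.34 and 16.2. A further 39 lay between Gm5148 and Ankrd50 over 725 kb.

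The stretch between Pik3r1, the gene for a regulatory subunit of phosphoinositide 3-kinase, and Cd180 held 33 far peaks, and that between Zfp608 and Gramd3 held 33. The stretch from Plpp3, a lipid phosphatase gene, to Gm12728 held 32 over 557 kb. The stretch from Gja1, which encodes connexin 43, the main gap junction protein of the ventricle, to Hsf2 held 30 over 1084 kb. Of those 30, 26 were in both single lists and the highest fold was 13.7. The stretch from Mpdz to Nfib held 29 with 19 in both single lists. Serp2 to Lacc1 held 29 as well, with less covered length.

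**Figure D4:**
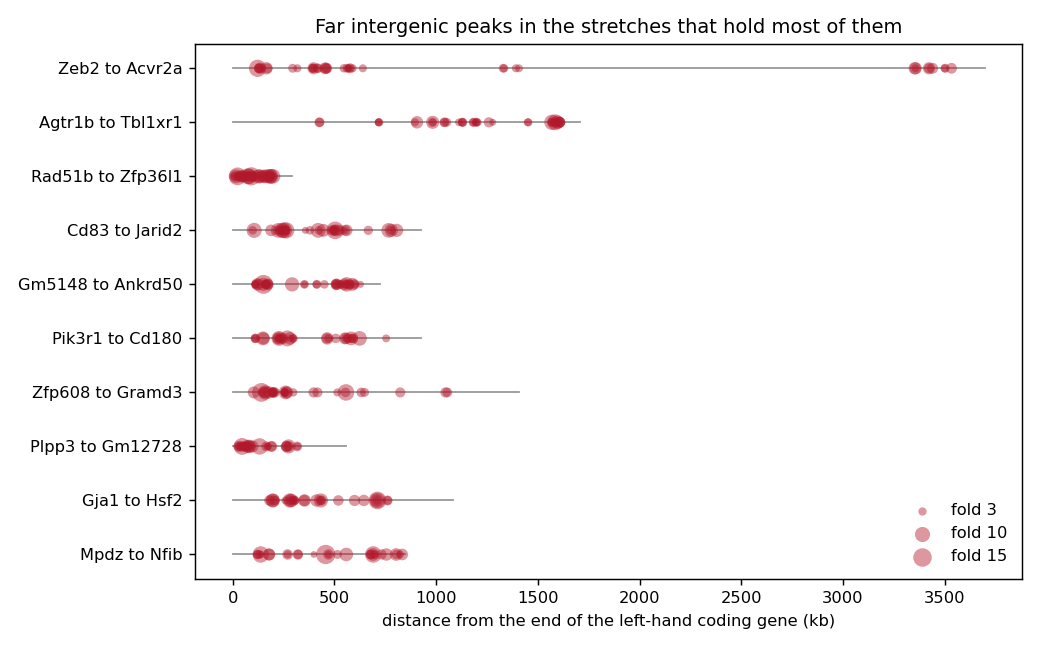
Far intergenic peaks (circles, area proportional to the deposited fold) along the 10 stretches between neighbouring coding genes that hold most of them, by distance in kb from the end of the left-hand gene; the grey line is the length of the stretch. The 39 peaks between Rad51b and Zfp36l1 fill 293 kb, while the 40 between Zeb2 and Acvr2a lie in separate groups over 3697 kb.

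Counted by nearest coding TSS, the far peaks were assigned to 787 genes, 28.2% of the 2792 coding genes that have eligible sequence nearest to them. Zfp36l1 had most, 39, followed by Tbl1xr1 with 35, Zfp608 with 32, Zeb2 with 31 and Plpp3 with 25. Plk2, a polo-like kinase gene, had 23, and Cd83, Gja1, Pik3r1 and Med13l, a Mediator subunit gene, had 22 each. Those in both single lists ran from 18 of 35 at Tbl1xr1 to 19 of 22 at Gja1, whose 22 lay 203 to 542 kb from its TSS. The 10 genes differed widely in room, with 0.178 Mb of eligible sequence at Zfp36l1 and 1.65 Mb at Zeb2, which gave 219 and 18.7 far peaks per Mb. Each of the 10 had a promoter peak, with the lowest fold at Cd83, 6.34.

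Genes nearest to a far peak carried a promoter peak more often than genes that had eligible sequence but no far peak. The share was 71.4% (68.1 to 74.6) of the 787 genes, against 47.1% (44.9 to 49.3) of 2005 genes, with 57.3% of all 21739 coding genes. It was 64.7% of 249 genes with 1 far peak, 71.3% of 335 genes with 2 to 4, 79.5% of 127 genes with 5 to 9 and 80.3% (69.5 to 88.5) of 76 genes with 10 or more. Genes are not replicates, and neighbouring genes share stretches, so these intervals cover counting only. A gene with more eligible sequence had more room for far peaks. The groups were not matched for that room, and its part was not tested. Whether any far peak acts on its nearest gene was not measured.

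Far peaks per Mb of eligible sequence differed between lists of genes, against 4.46 over all genes. Counts of genes reached are to be read against 787 of 2792 (28.2%) of all coding genes with eligible sequence. The lists differed in room, with 1.80 Mb at 7 endothelial genes and 54.7 Mb at 44 neuronal adhesion genes, and in how much of it lay close to the genes, where far peaks were denser. Values within 100 to 200 kb of coding TSSs are therefore given as well, and no difference between lists was tested. Among endothelial genes, 7 of the 7 with eligible sequence were nearest to at least 1 far peak, with 44 peaks and 24.4 per Mb. Ets1, a transcription factor of vessels, had 14, Foxo1 10, Nrp1, a VEGF co-receptor gene, 8 and Kdr, the gene for the main VEGF receptor, 6. Of these, 12, 6, 5 and 5 in that order were in both single lists, and those of Ets1 reached 405 kb from it.

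Cardiac transcription factors had 42 far peaks at 14.4 per Mb, with 7 of 13 genes reached. Nfib, a nuclear factor I gene, had 13, and Gata6, Hand2 and Meis1 had 7 each, of which 5, 6 and 3 were in both single lists. The promoter peaks of these 4 genes were 8.65 to 13.3 kb wide. Contraction and calcium handling genes had 41 at 12.1 per Mb, with 5 of 5 genes reached. These were led by Gja1 with 22, followed by Kcnd2, a gene of the transient outward potassium current, with 7, Slc8a1, the sodium-calcium exchanger gene, with 6, and Kcnj2, a gene of the inward rectifier current, with 5. In both single lists were 19 of these for Gja1, 7 for Kcnd2, 2 for Slc8a1 and 1 for Kcnj2. The other 19 contraction and calcium handling genes had no eligible sequence nearest to them and could have no far peak. Ttn, Myh6 and Tnnt2 were among them.

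Fibroblast and mural genes had 14 far peaks at 14.2 per Mb in 3 of 7 genes. Of these, 11 were at the collagen gene Col3a1, 2 at Dcn and 1 at Pdgfra, with 4, 1 and 0 in both single lists. Developmental transcription factors had 121 at 7.38 per Mb in 21 of 42 genes. Zeb2 led with 31, then Klf6 with 18, and Nr2f2, a factor of atria and veins, and Tcf4 with 11 each. Of those, 16, 14, 6 and 4 in that order were in both single lists. Secreted signals and guidance genes had 24 at 1.90 per Mb in 8 of 30 genes (26.7%), near the 28.2% of all genes with eligible sequence. Ccn2, a matrix signalling gene, had 7, Inhba, an activin subunit gene, 6, Vegfa, the vascular growth factor gene, 3 and Robo2 2. In both single lists were 2, 4, 3 and 2 of these in that order. Neuronal adhesion genes had 54.7 Mb of eligible sequence but 36 far peaks, 0.659 per Mb, in 14 of 44 genes (31.8%), a share also near that of all genes. Of these, Flrt2 had 6, Pcdh18 5, Cntnap2 4 and Cdh6 3, and Cntnap2 and Cdh6 had no promoter peak. The peaks of these genes in both single lists numbered 3, 2, 3 and 2 in that order. Olfactory and vomeronasal receptor genes had 6 far peaks at 2.18 per Mb in 3 of 37 genes, 3 of them near Olfr693. Of the 15 housekeeping genes 1 had eligible sequence, and 0 far peaks lay nearest to it.

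Single genes carried much of some lists. Without the gene nearest to most members, contraction and calcium handling genes came to 6.49 far peaks per Mb without Gja1, fibroblast and mural genes to 3.87 without Col3a1, and olfactory and vomeronasal receptor genes to 1.14 without Olfr693. Endothelial genes were at 24.1 without Ets1 and cardiac transcription factors at 10.8 without Nfib. The share of eligible sequence lying 100 to 200 kb from coding TSSs was 35.4% for endothelial genes, 9.55% for neuronal adhesion genes and 28.8% over all genes. In that distance class alone, density was 34.5 per Mb for endothelial genes, from 22 far peaks. Contraction and calcium handling genes were at 20.0, from 10, and cardiac transcription factors at 17.7, from 18. Fibroblast and mural genes were at 10.1, from only 6, against 8.22 over all genes. Density was 5.86, from 27 far peaks, for developmental transcription factors, above all genes over the whole of eligible sequence but not here. Secreted signals and guidance genes were at 5.03, from 15, and olfactory and vomeronasal receptor genes at 2.64, from 4. Neuronal adhesion genes were at 1.53, from 8 far peaks.

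Some far peaks lay in or near annotated non-coding transcripts. The median distance to the TSS of a gene of another type in GENCODE was 32.4 kb, 623 far peaks (20.2%) lay within 10 kb of one and 68 (2.20%) within 1 kb. Nearer intergenic peaks gave 27.3% within 10 kb and 2.74% within 1 kb. By type, 37 of the 68 were at long intergenic non-coding RNA genes, 9 at processed pseudogenes, 7 at microRNA genes and 7 at processed transcripts. RefSeq gene bodies of the same assembly overlapped 473 far peaks (15.3%), of which 427 were in long non-coding RNA genes and 29 in coding genes. Overlap with RefSeq long non-coding RNA genes was thus 13.8% in far peaks, with 14.1% of nearer intergenic peaks and 12.8% of all peaks, and overlap with any RefSeq gene body was 17.99% in nearer intergenic peaks and 76.5% in all peaks. The 29 were 10 in Pdgfd, which encodes a platelet-derived growth factor, 7 in Rad51b, 6 in Ppargc1a, the gene for the PGC-1α coactivator of mitochondrial genes, 4 in Samd5 and 1 each in Fer and Zfp536. The strongest in Ppargc1a had a fold of 12.6 and the strongest in Pdgfd a fold of 11.7, and both were in both single lists. For these 6 genes RefSeq models reach beyond the GENCODE gene body.

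Far peaks were spread unevenly over the chromosomes. Chromosome 13 held 290, at 9.45 per Mb of its eligible sequence (95% exact Poisson interval 8.39 to 10.6), and chromosome 10 held 227 at 7.12 (6.22 to 8.11). The other autosomes lay between 3.19 per Mb on chromosome 15 and 5.92 on chromosome 17. On chromosome 13 the stretches from Cd83 to Jarid2, Pik3r1 to Cd180 and Plk2 to Actbl2 held 39, 33 and 28 of them. Over all peaks, chromosome 13 was not dense, at 22.2 per Mb against 24.6 for the genome. The X chromosome held 54 far peaks at 0.980 per Mb (0.736 to 1.28), against 4.76 on the autosomes, a ratio of 0.206. For all peaks that ratio was 0.278. The median fold of the 54 was 4.35, so far peaks on the X were fewer per Mb without being weaker in the list than the 3.89 of all far peaks.

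**Figure D5:**
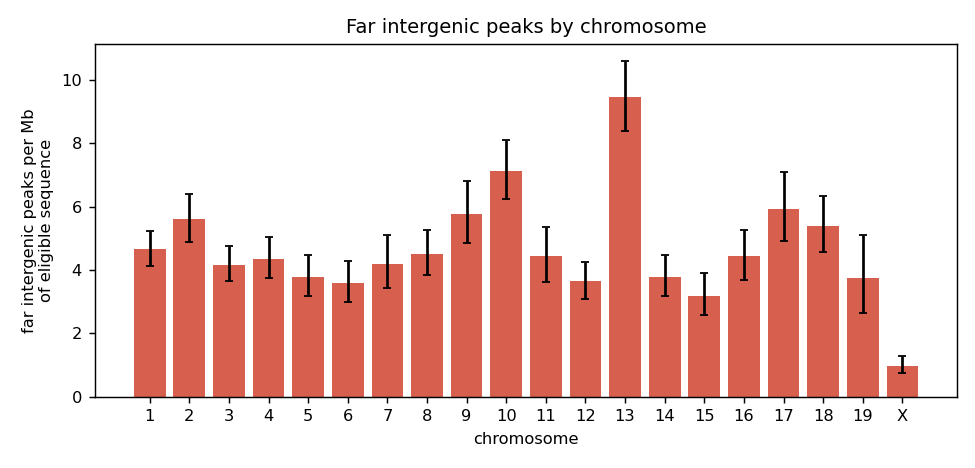
Far intergenic peaks per Mb of eligible sequence on each chromosome, with 95% exact Poisson intervals that cover counting only. Chromosome 13 is highest at 9.45 per Mb and the X chromosome lowest at 0.980 per Mb.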

How the data were processed

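Peaks of 4 deposited lists were used: 1 of replicated peaks, 1 of pseudoreplicated peaks from both biological replicates and 1 from each single replicate, per the deposited file lists. The authors had joined technical replicates before calling peaks, so the lists hold no value per library. Each deposited list gives the authors' fold ratio, their −log10 q-value and, in bp from the peak start, the summit. Fold was read as a ratio over a control from the column order of the file format. Positions are on mm10 per the labels. Aligner and peak caller were not given in the sources used here, and depth is unknown. Reads of the hybrid mice were placed on the C57BL/6J assembly, and any part played by CAST/EiJ variants was not tested.

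From these lists, overlaps and distances were computed with Python 3.11.15, numpy 2.4.6, pandas 2.3.3 and pysam 0.24.0 against GENCODE M21 and the GRCm38 sequence from RefSeq. Overlap needed 1 bp. Consensus sequences, 18 in all, were searched on both strands of the 500 bp around the summit, and intervals are 95% exact binomial or Poisson intervals from scipy 1.17.1. Only the overlap, distance and consensus search steps were tested on simulated data. With 1 group and peaks as members, no p-value is given. The members, 9 gene lists and consensus sequences were chosen with earlier results of these data known. Named in the text were the 10 far peaks with the highest fold in both single lists, the 5 farthest, 3 on either side of the threshold, the 10 longest clusters, the 10 fullest stretches with their flanking genes, the 10 genes nearest to most members, and up to 4 genes per list. Peaks at RefSeq coding genes and starts, the stretches from Serp2 and Plk2, and the MEF2 windows were added after their values were seen. Alternatives changed the distance, annotation, list, q or fold limit, joining gap, window and overlap.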

Additional observations from a re-analysis of the deposited data

How the results depend on the processing

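The number of far intergenic peaks was 5482 over 50 kb and 1450 over 200 kb from coding TSSs, and 1174 with a fold at or above the list median. With that fold limit the density was 1.70 per Mb, the share in both single lists 97.5%, the median width 1041 bp and the median fold 6.32. Over 200 kb, that share was 63.4%, median width 521.5 bp and median fold 3.79, and over 50 kb the median fold was 3.99. The share in both lists was 46.6% when 50% of both peaks had to overlap, and median GC was 43.9% over whole peaks. From 1 biological replicate at a time, the median width ran from 544.5 to 729 bp and density from 3.62 to 4.43 per Mb. In a 200 bp window the difference from flanks was −0.77 percentage points for MEF2, −0.20 for FOX and −0.31 for SOX. Apart from these, 31 recomputed main values and 37 consensus differences stayed within 1.5 times for counts and within their intervals otherwise, and 15 consensus differences, SOX among them, moved, most of them with the window. The causes were not tested. Settings chosen after seeing the data were RefSeq annotation, autosomes only, windows of 40 to 50% GC, gene lists without their leading gene or within 200 kb, and joining of the other peaks. No paired analysis was possible because the series has 1 group and no test. Depth, which would set how many weak far peaks can be seen, is unknown.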
